A study of Mus musculus with 6 samples.

Results

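The smooth muscle type contractile genes are 10 genes of the actin and myosin machinery: Acta2, Actg2, Tagln, Cnn1, Cnn2, Myl9, Mylk, Myh11, Tpm1 and Tpm2. Probe sets annotated to exactly 1 gene symbol were taken, and each gene was given the probe set with the highest mean over the 6 samples. All 10 genes were found, among 18193 genes in all. The study compared 3 samples of primary mouse fibroblasts with the Delta9 allele of Lmna, which encodes the A-type lamins of the nuclear envelope, with 3 wild-type (WT) samples. Both groups came from sibling animals of a mixed C57bl6X129S3/J background, were grown as primary cells to passage 3, and spent 72 hours without serum before total RNA was taken for 1 Affymetrix array per sample. They are adult cells by the labels and post-natal cells by the series text. No ages, sexes or animal numbers are given, so the p-values reflect only how these samples vary, which may be technical. Values are the deposited log2 levels, and each difference is the Delta9 mean minus the WT mean.

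A myofibroblast is a fibroblast that has taken up a contractile program shared with smooth muscle, as happens in wound repair, in fibrosis and on stiff culture surfaces. Smooth muscle actins form stress fibres, myosin pulls on them once its regulatory light chain is phosphorylated, and tropomyosins, calponins and transgelin bind along the actin filament. Serum response factor (SRF), which binds a short DNA element called the CArG box, controls many of these genes together with the actin-sensing cofactors Mrtfa and Mrtfb or with the smooth muscle cofactor Myocd.

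Lmna was lower in every Delta9 sample on its brightest probe set, at 7.07, 6.95 and 6.11 log2 in Delta9 replicates 1, 2 and 3, against 8.35, 8.89 and 8.78 in WT replicates 1, 2 and 3. Its difference of -1.96 (SE 0.28) had an adjusted p of 0.0899 in limma, and its other 4 probe sets differed by -3.42 (1457670_s_at, adjusted p 0.00421 in the limma fit of all probe sets), -2.05 (1425472_a_at), -0.54 (1426868_x_at) and 0.22 (1452212_at). Of these 4 only the first passed. The position of these probes relative to the altered exon was not examined. The array medians ran from 3.35 to 3.43 log2. Delta9 replicate 3 and WT replicate 1 were lowest in the poly-A spike-in transcripts, which are added to RNA before labelling: these averaged 5.20 and 4.85 log2, against 5.64 to 6.10 on the other 4 arrays. The spike-in split used below was set at the widest gap in these values, 0.44 log2, so it was chosen from the data. Col1a1, a fibroblast marker, was bright in all 6 samples, at 11.99 to 12.10 in Delta9 and 12.23 to 12.40 in WT.

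Of the 10 contractile genes, 0 passed an adjusted p of 0.05 in limma, where 0.0605% of all genes passed. An unadjusted p under 0.05 with a lower mean in Delta9 was found for 1, Mylk, where 6.06% of all genes had one. All 10 differences were negative, from -0.81 for Mylk to -0.43 for Tpm1, with a median of -0.59 against -0.015 over all genes. These values rested largely on 1 sample. In Delta9 replicate 3, 9 of the 10 genes were at their lowest of the 6 samples, where 25% of all genes were. Without that sample 5 differences were negative and 5 positive, with a median of -0.0074. Again 0 of the 10 passed, where 0.445% of all genes did, and 1, Mylk, was lower at an unadjusted p under 0.05, where 6.9% of all genes were.

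**Figure D1:**
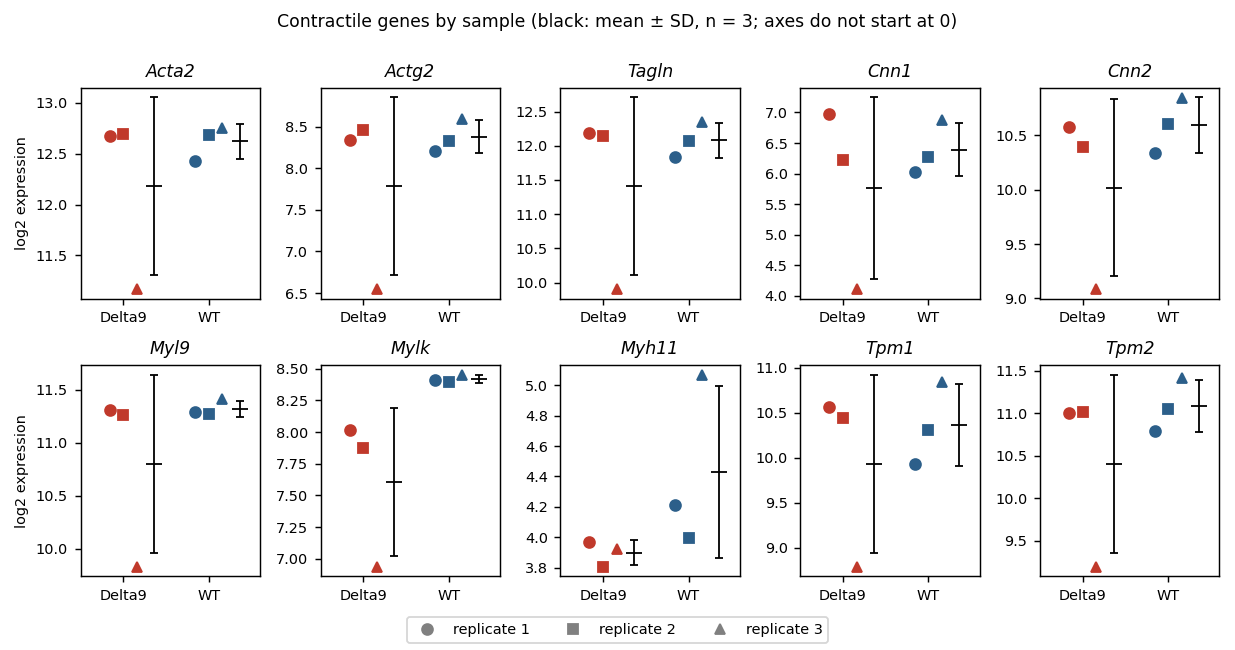
Log2 expression of the 10 contractile genes in 3 Delta9 samples (red) and 3 WT samples (blue), with symbols for replicates and black bars for the mean ± SD (n = 3); each panel has its own vertical axis, which does not start at 0. Delta9 replicate 3 lies below all other samples for every gene but Myh11, whose lowest sample is Delta9 replicate 2 at 3.81.

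Acta2 (probe set 1416454_s_at) encodes smooth muscle alpha-actin, the protein most used to recognise a myofibroblast. It measured 12.68, 12.69 and 11.17 log2 in Delta9 replicates 1, 2 and 3, against 12.43, 12.69 and 12.76 in WT replicates 1, 2 and 3. Replicates 1 and 2 of Delta9 lay within the WT range and replicate 3 lay 1.26 below the lowest other sample. The difference was -0.45 (SE 0.39, 95% interval -1.37 to 0.48, adjusted p 0.722 in limma), and without Delta9 replicate 3 it was 0.061 (interval -0.20 to 0.32). The spread within Delta9, an SD of 0.88, was wider than the 0.17 within WT (n = 3 each). The probe set read here is of the _s_at type, whose probes may be shared with other transcripts, and the other Acta2 probe sets, 1456658_at and 1444105_at, were dim, averaging 2.59 and 2.47 in Delta9, against 2.77 and 2.81 in WT.

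The stretch around the Acta2 start is shown because SRF acts on this gene through CArG boxes. It runs from 250 bases before to 50 bases after the RefSeq start on chr19:34255324-34255623 of GRCm38.p6, minus strand. A CArG box is 2 C, then 6 letters that are A or T, then 2 G. The search was also run with 1 of the 6 letters free, a relaxation chosen after the Acta2 sequence was seen, and with CATTCC or its reverse complement GGAATG, the core of the element bound by TEAD factors. The CArG pattern is its own reverse complement, so each search covers both strands. Capitals mark every match.
Acta2: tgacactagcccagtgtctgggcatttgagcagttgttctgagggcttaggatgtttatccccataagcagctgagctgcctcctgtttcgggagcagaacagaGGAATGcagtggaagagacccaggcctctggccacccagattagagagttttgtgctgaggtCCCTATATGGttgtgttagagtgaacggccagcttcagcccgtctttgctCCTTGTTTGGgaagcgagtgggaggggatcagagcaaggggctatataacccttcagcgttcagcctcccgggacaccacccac
With 1 letter free, Acta2 held CCCTATATGG, whose first base lies at -84 relative to the start, and CCTTGTTTGG, at -34. It also held GGAATG at -146. No box of the strict form is in this window.

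Actg2 (1422340_a_at) encodes smooth muscle gamma-actin, the main actin of visceral smooth muscle. It measured 8.34, 8.47 and 6.55 log2 in Delta9 replicates 1, 2 and 3, against 8.22, 8.33 and 8.60 in WT replicates 1, 2 and 3. As with Acta2, Delta9 replicates 1 and 2 sat among the WT values and replicate 3 alone was low. The difference was -0.60 (SE 0.48, interval -1.74 to 0.54, adjusted p 0.697 in limma), or 0.021 (interval -0.35 to 0.39) without Delta9 replicate 3. Smooth muscle actins are close in sequence, and the probes' specificity was not examined here.

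Among the proteins that bind actin filaments, Tagln (1423505_at) encodes transgelin, also called SM22-alpha, an early marker of smooth muscle and myofibroblasts. It measured 12.18, 12.14 and 9.91 log2 in Delta9 replicates 1, 2 and 3, against 11.84, 12.06 and 12.34 in WT replicates 1, 2 and 3. Delta9 replicate 3 was 4.62-fold below the mean of the other 5 samples, while the other 2 Delta9 samples lay inside the WT range. The difference over all samples was -0.67 (SE 0.58, adjusted p 0.715 in limma), and 0.080 (interval -0.27 to 0.43) without that sample.

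Cnn1 (1417917_at) encodes calponin 1, an actin-binding protein of differentiated smooth muscle. It measured 6.98, 6.21 and 4.11 log2 in Delta9 replicates 1, 2 and 3, against 6.02, 6.28 and 6.87 in WT replicates 1, 2 and 3. Delta9 thus held both the highest and the lowest of the 6 values. Its distance of -2.37 between Delta9 replicate 3 and the mean of the other samples was the widest of the 10 genes, and its Delta9 SD of 1.49 was the widest too, against 0.44 in WT (n = 3 each). The difference between the groups was -0.63 (SE 0.68, adjusted p 0.777 in limma), and 0.20 (interval -0.56 to 0.97) without Delta9 replicate 3.

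Cnn2 (1450981_at) encodes calponin 2, which is made in fibroblasts and other cells outside muscle as well. It measured 10.58, 10.39 and 9.09 log2 in Delta9 replicates 1, 2 and 3, against 10.33, 10.61 and 10.85 in WT replicates 1, 2 and 3. Of the 10 genes it followed their mean profile most closely, with a root mean square difference of 0.066 log2 over the 6 samples. The difference was -0.58 (SE 0.38, adjusted p 0.629 in limma), and -0.11 (interval -0.50 to 0.28) without Delta9 replicate 3. Its start, on the plus strand at chr10:79988350-79988649 (GRCm38.p6), is shown for its strict CArG box, CCTTATAAGG at -56.
Cnn2: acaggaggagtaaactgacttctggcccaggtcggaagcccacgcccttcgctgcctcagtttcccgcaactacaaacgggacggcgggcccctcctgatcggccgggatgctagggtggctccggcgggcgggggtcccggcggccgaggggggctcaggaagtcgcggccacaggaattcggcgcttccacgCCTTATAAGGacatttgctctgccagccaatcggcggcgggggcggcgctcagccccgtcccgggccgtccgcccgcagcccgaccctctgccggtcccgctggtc

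Myl9 (1452670_at) encodes the regulatory light chain of smooth muscle myosin, the subunit whose phosphorylation switches contraction on. It measured 11.31, 11.26 and 9.83 log2 in Delta9 replicates 1, 2 and 3, against 11.29, 11.27 and 11.41 in WT replicates 1, 2 and 3. The other samples lay between 11.26 and 11.41, and Delta9 replicate 3 was 1.43 under the lowest of them. The difference was -0.52 (SE 0.37, adjusted p 0.661 in limma), and without Delta9 replicate 3 it was -0.036, with an interval of -0.25 to 0.18. The Myl9 start, on the plus strand at chr2:156775214-156775513 (GRCm38.p6), is shown because it held a strict CArG box, CCTAATAAGG at -161, and a second match with 1 letter free, CCTTGTAAGG at -99.
Myl9: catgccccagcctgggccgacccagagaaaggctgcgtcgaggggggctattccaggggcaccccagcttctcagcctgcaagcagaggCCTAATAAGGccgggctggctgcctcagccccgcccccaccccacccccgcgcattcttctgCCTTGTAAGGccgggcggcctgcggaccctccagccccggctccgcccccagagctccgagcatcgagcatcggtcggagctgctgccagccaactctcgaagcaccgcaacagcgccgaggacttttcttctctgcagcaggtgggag
Of the 10 genes, 7 had a sequence of this length in the RefSeq table: Acta2, Cnn1, Cnn2, Myl9, Mylk, Tpm1 and Tpm2. The strict CArG box was in 2 of the 7, Cnn2 and Myl9, against 1.63% of 32851 promoters of the same length. The form with 1 letter free was in 3 of the 7, against 9.98%. It added only Acta2, whose sequence led to that relaxation, so this second count cannot be judged against its share. CATTCC or GGAATG was in 3 of the 7, Acta2, Mylk and Tpm1, against 14.7% of promoters. These matches describe the letters only.

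Mylk (1425506_at) encodes myosin light chain kinase, the calmodulin-dependent enzyme that phosphorylates the regulatory light chain. It measured 8.02, 7.87 and 6.94 log2 in Delta9 replicates 1, 2 and 3, against 8.41, 8.40 and 8.45 in WT replicates 1, 2 and 3. All 3 Delta9 values lay below all 3 WT values, and the WT values spread by an SD of only 0.03 (n = 3). The difference was -0.81, a 1.76-fold lower mean level in Delta9 (SE 0.28, interval -1.46 to -0.16), with an unadjusted p of 0.0214 and an adjusted p of 0.389 in limma. Without Delta9 replicate 3 it was -0.48 (interval -0.77 to -0.18), with an adjusted p of 0.200. A second bright Mylk probe set, 1425505_at, gave 7.06, 6.97 and 6.21 in Delta9 and 7.73, 7.49 and 7.41 in WT, again without overlap. The third, 1425504_at, was dim and overlapped, at 2.90 to 3.11 in Delta9 and 3.05 to 3.20 in WT.

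Myh11 (1448962_at) encodes the smooth muscle myosin heavy chain, the most specific marker of mature smooth muscle among the 10. It was dim, at 3.97, 3.81 and 3.92 log2 in Delta9 replicates 1, 2 and 3, against 4.22, 3.998 and 5.07 in WT replicates 1, 2 and 3. The groups did not overlap, but the nearest values were 3.97 in Delta9 and 3.998 in WT, and WT replicate 3 alone stood well above the rest. The difference was -0.53 (SE 0.27, adjusted p 0.534 in limma), and -0.21 (interval -0.55 to 0.13) without WT replicate 3. After quantile normalization its groups overlapped. Its other probe set, 1418122_at, averaged 2.54 in Delta9 and 2.53 in WT. Mylk and Myh11 were thus the 2 of 10 genes without overlap between the groups, where 9.99% of all genes lay below WT in all 3 Delta9 samples. The same 2 were below without Delta9 replicate 3, where 17.4% of all genes were.

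The tropomyosins are coiled-coil proteins that lie along actin and set which other proteins may bind it, and Tpm1 and Tpm2 give muscle and stress fibre forms by alternative splicing. Tpm1 (1423721_at) measured 10.56, 10.44 and 8.79 log2 in Delta9 replicates 1, 2 and 3, against 9.93, 10.30 and 10.84 in WT replicates 1, 2 and 3. Tpm2 (1419738_a_at) measured 11.01, 11.02 and 9.20 in Delta9 replicates 1, 2 and 3, against 10.80, 11.05 and 11.41 in WT replicates 1, 2 and 3. In both genes Delta9 replicates 1 and 2 lay within the WT range. The difference was -0.43 (SE 0.48, adjusted p 0.785 in limma) for Tpm1 and -0.68 (SE 0.48, adjusted p 0.656) for Tpm2, and 0.14 for Tpm1 and -0.074 for Tpm2 without Delta9 replicate 3.

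The probe sets of Tpm1 did not share 1 pattern. The second brightest, 1423049_a_at, put Delta9 replicate 3 at 8.04, against 9.04 to 10.19 in the other 5 samples. Probe set 1456623_at did not: it measured 6.75, 7.18 and 6.54 in Delta9, against 7.54, 6.74 and 5.59 in WT. Its lowest sample was WT replicate 3. Its difference of 0.20 (SE 0.45) had the opposite sign, with an adjusted p of 0.919 in the limma fit of all probe sets. Which transcripts each probe set reads was not determined here. All 4 Tpm2 probe sets were lowest in Delta9 replicate 3, by -2.03 to -0.93 relative to the mean of the other samples. In the fit of all 45037 probe sets, 0 of the 11 other probe sets of the 10 genes passed (limma), where 0.0355% of all probe sets did, and 1, Mylk 1425505_at, was lower at an unadjusted p under 0.05, where 5.16% of all probe sets were.

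**Figure D2:**
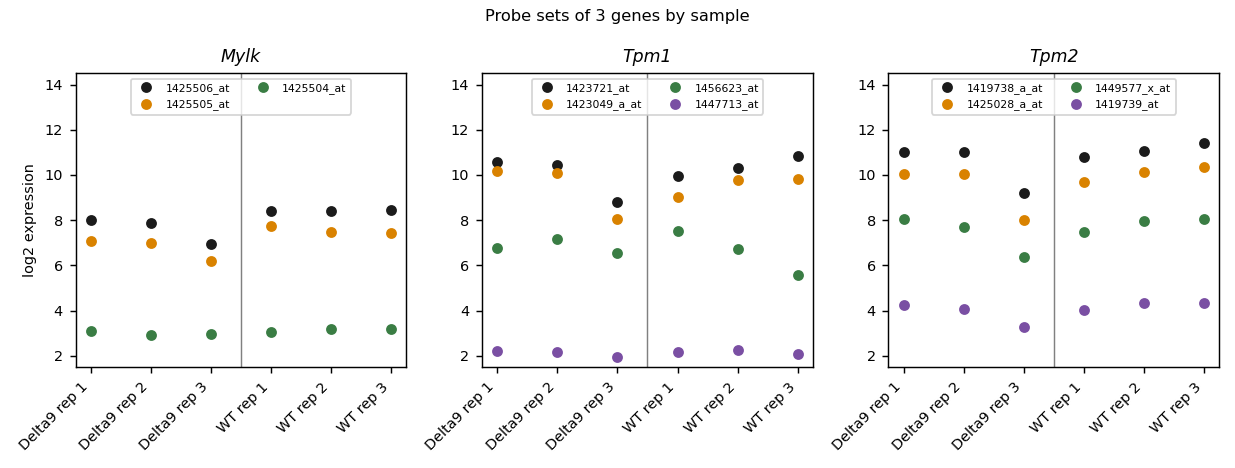
Log2 expression of each probe set of Mylk, Tpm1 and Tpm2 in the 6 samples, Delta9 on the left of the grey line and WT on the right. Tpm1 1456623_at is the bright probe set that departs from the others, with its lowest value, 5.59, in WT replicate 3.

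**Figure D3:**
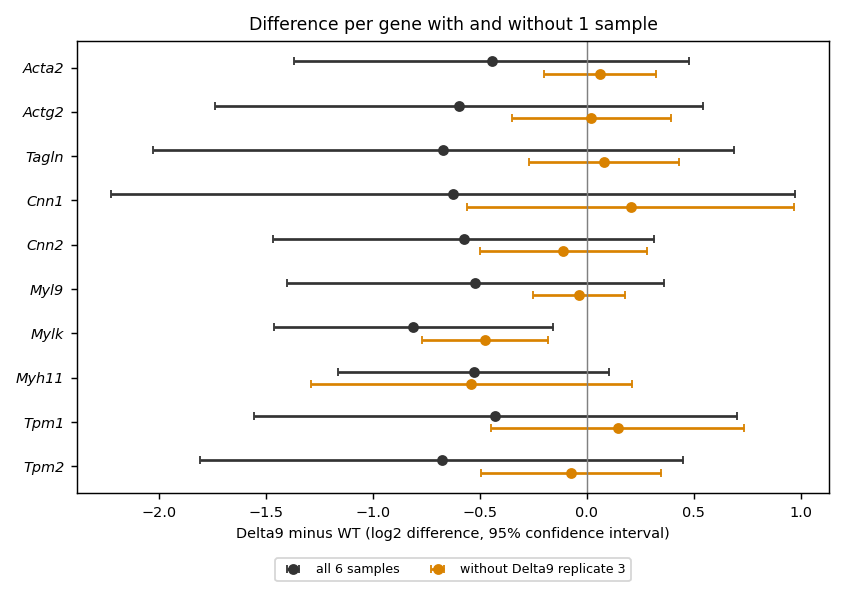
Difference of each contractile gene, Delta9 minus WT on the log2 scale, with its 95% confidence interval from limma, for all 6 samples (black) and without Delta9 replicate 3 (orange). The intervals of Mylk lie below 0 in both fits, at -1.46 to -0.16 and -0.77 to -0.18, while the other genes' intervals cross 0.

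The distance of Delta9 replicate 3, a sample singled out after its values were seen, was large across the set. Relative to the mean of the other 5 samples it lay 2.45-fold lower for Mylk to 5.16-fold lower for Cnn1 in 9 of the genes, and 1.22-fold lower for Myh11. It was at least 1 log2 below each of the other samples for 8 of the 10 genes, where 0.407% of all genes, 74 of 18193, were that far below. Each of the other samples had 0 members that far below or above the rest. Of all genes, from 0% to 0.978% were that far below in those samples, and from 0.011% to 0.176% that far above. The 0.978%, or 178 genes, was in WT replicate 3, more than in Delta9 replicate 3. Delta9 replicate 3 also had 106 genes (0.583%) that far above, with 0 members among them. In WT replicate 3, the sample at the other end, 9 of the 10 genes were at their highest, where 27.2% of all genes were. Over the 10 genes the median SD was 0.93 within Delta9 and 0.25 within WT, against 0.16 in each group over all genes.

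**Figure D4:**
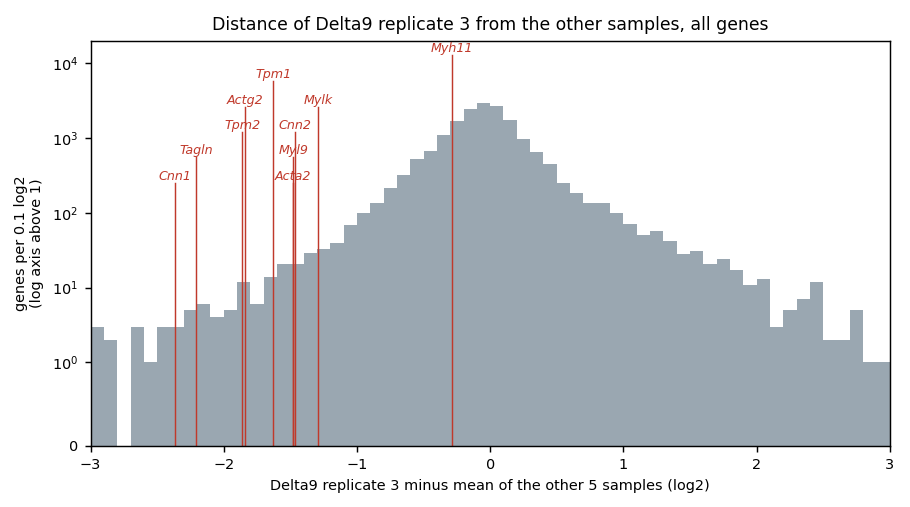
Number of genes by the log2 distance of Delta9 replicate 3 from the mean of the other 5 samples, over 18193 genes in bins of 0.1 (the vertical axis is logarithmic above 1; genes more than 3 away on either side are not drawn), with the 10 contractile genes as red lines. The red lines run from -2.37 for Cnn1 to -1.29 for Mylk, with Myh11 apart at -0.29.

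The spike-in signal was low in both Delta9 replicate 3 and WT replicate 1. Between these arrays, Delta9 replicate 3 minus WT replicate 1 was -1.93 for Tagln, the widest, to -1.14 for Tpm1 in 9 genes, and -0.29 for Myh11. This is 1 sample against 1, with no test. For Gapdh, the gap between its 3' and 5' control probe sets, a measure of RNA integrity, was 0.25, 0.23 and 0.57 log2 in Delta9 replicates 1, 2 and 3, against 0.57, 0.49 and 0.51 in WT replicates 1, 2 and 3. For beta-actin it was 0.68, 0.51 and 0.84 in Delta9 replicates 1, 2 and 3, against 0.86, 0.82 and 1.41 in WT replicates 1, 2 and 3. The 18S ribosomal RNA control measured 9.37, 9.51 and 10.39 in Delta9 replicates 1, 2 and 3, against 10.08, 9.21 and 7.86 in WT replicates 1, 2 and 3. It was highest in the sample where the contractile genes were lowest and lowest in WT replicate 3, where 9 of them were highest. The part of RNA quality in the contractile values was not tested. On the 4 arrays with more spike-in signal, the median difference of the 10 genes was -0.066. Of the 10, 0 passed there (limma), where 0.335% of all genes did, and 1, Mylk, was lower at an unadjusted p under 0.05, where 7.88% of all genes were. Mylk differed by -0.48 (SE 0.11, adjusted p 0.159).

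The mean of the macrophage markers was highest in Delta9 replicate 3, where the contractile genes were lowest. Msr1 and C1qa did not follow this and were highest in Delta9 replicate 1. All 14 had higher means in Delta9, and 0 passed an adjusted p of 0.05 (limma). Of them 3 were higher at an unadjusted p under 0.05, where 4.54% of all genes were. Their mean level was 9.84, 9.71 and 10.29 log2 in Delta9 replicates 1, 2 and 3, against 9.83, 9.11 and 7.63 in WT replicates 1, 2 and 3. Delta9 replicate 3 had their highest mean and WT replicate 3 their lowest. In RNA from whole cultures, fewer cells of a type and less RNA per cell cannot be told apart. With the macrophage mean as a covariate the median difference of the 10 genes was -0.14, with 8 negative and 2 positive, and Mylk differed by -0.65 (SE 0.36, interval -1.53 to 0.22). The part of macrophages in the contractile values was not tested further.

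Markers of other cell types were read in the same way. The 10 vascular smooth muscle and pericyte markers had mean levels of 5.34 to 5.40 in Delta9 and 5.68 to 6.04 in WT. These means hide opposite values in Delta9 replicate 3, where 6 of the 10 were at their lowest of the 6 samples, against 25% of all genes, with a median distance of -0.66 from the mean of the others. Rgs5, a pericyte marker, measured 7.08, 6.85 and 5.88 in Delta9 replicates 1, 2 and 3, against 6.35, 7.11 and 7.24 in WT replicates 1, 2 and 3. Abcc9, a potassium channel subunit of mural cells, measured 4.92, 5.29 and 7.21 in Delta9 replicates 1, 2 and 3, against 6.82, 6.498 and 6.48 in WT replicates 1, 2 and 3. Both are named after their values were seen, and Delta9 replicate 3 was the lowest sample for Rgs5 and the highest for Abcc9. Of the 10 markers, 8 had lower means in Delta9 and 0 passed (limma), where 0.0605% of all genes did. Of them 3 were lower at an unadjusted p under 0.05, where 6.06% of all genes were. These were Notch3 at -1.11 (SE 0.14, adjusted p 0.068 in limma), Ndufa4l2 at -0.94 (SE 0.19) and Aoc3 at -0.88 (SE 0.24). The same 3 of the 10 markers, and no others, lay below WT in every Delta9 sample, where 9.99% of all genes did. Both counts come from the same values, so the second adds no separate evidence. The 14 skeletal muscle markers averaged 4.84 to 6.04 in Delta9 and 5.42 to 6.28 in WT, lowest in Delta9 replicate 2. The 8 endothelial markers averaged 4.37 to 5.36 in Delta9 and 4.33 to 4.88 in WT, and the 8 keratinocyte markers 3.45 to 3.51 in Delta9 and 3.54 to 3.64 in WT. The 12 fibroblast markers averaged 10.66 to 10.81 in Delta9 and 10.94 to 11.18 in WT. Of them 11 had lower means in Delta9, and 0 passed (limma). At an unadjusted p under 0.05, 2 were lower, Col1a1 and Dcn, where 6.06% of all genes were.

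**Figure D5:**
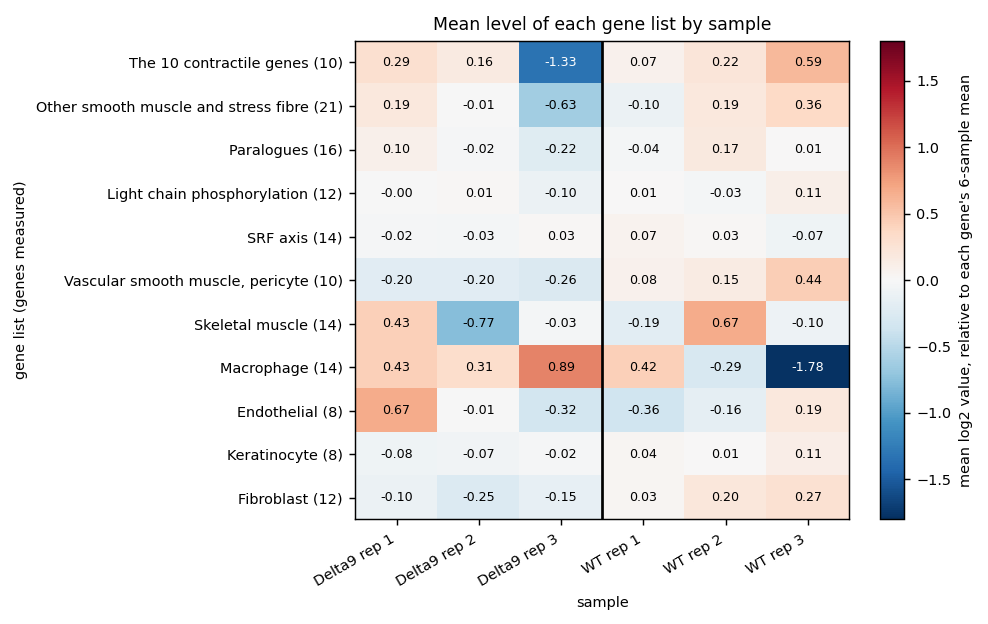
Mean log2 value of each gene list in each sample, relative to each gene's 6-sample mean, with the number of genes measured in brackets; Delta9 samples are left of the black line and WT samples right of it. The contractile genes are at -1.33 in Delta9 replicate 3, where macrophage markers are at 0.89, and at 0.59 in WT replicate 3, where macrophage markers are at -1.78.

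The rest of the contractile pathway was read from 4 further lists. Among 21 other smooth muscle and stress fibre genes, 18 had lower means in Delta9, with a median of -0.28, and 0 passed (limma). Of them 5 were lower at an unadjusted p under 0.05, where 6.06% of all genes were. Svil, the membrane-linked actin binder supervillin, had the lowest p, at 7.83, 7.90 and 7.89 in Delta9 replicates 1, 2 and 3, against 8.74, 8.40 and 8.58 in WT replicates 1, 2 and 3. Its 3 Delta9 values were nearly equal and all below WT, with a difference of -0.70 (SE 0.13, adjusted p 0.185). With the spike-in split as a block, where 0.819% of all genes passed, its adjusted p was 0.0426 in limma. It was the only gene of the 4 lists to pass in any of the alternatives tried. Fhl1, a LIM-domain protein of muscle, differed by -0.82 (SE 0.22, adjusted p 0.294). Those with higher means were Filip1l at 0.30 (SE 0.36) and Csrp1, a LIM-domain protein of smooth muscle, at 0.10 (SE 0.34), and Des. In Delta9 replicate 3, 17 of the 21 were at their lowest, where 25% of all genes were, but 0 of them lay 1 log2 below each other sample.

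Close relatives of the 10 genes were also read. Of 16 other actins, calponin, transgelins, myosins and tropomyosins, 10 had lower means in Delta9, the median was -0.12, and 0 passed (limma, 0 under an unadjusted p of 0.05). Tpm4, a tropomyosin made outside muscle, differed by -0.47 (SE 0.26), and Myh10, a non-muscle myosin heavy chain, by -0.36 (SE 0.19). Tagln2, the broadly made relative of transgelin, differed by 0.34 (SE 0.27). Actb, cytoplasmic beta-actin, measured 13.31, 13.40 and 13.34 in Delta9 replicates 1, 2 and 3, against 13.36, 13.29 and 12.90 in WT replicates 1, 2 and 3. Unlike Acta2, it was not low in Delta9 replicate 3. Actg1, another actin of this list, was lowest in that sample, at 12.09, against 12.42 to 12.52 in the others. Of the 16 relatives, 8 were at their lowest there, where 25% of all genes were. In that sample the 16 relatives had a median distance of -0.31 from the mean of the other samples, against -1.56 for the 10 contractile genes and -0.04 for all genes.

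Of 12 genes that set light chain phosphorylation, 7 had lower means in Delta9, with a median of -0.068, and 0 passed (limma, 0 under an unadjusted p of 0.05). Ppp1r12b, a targeting subunit of myosin phosphatase found in muscle, differed by -0.53 (SE 0.24), and Mylk3, the cardiac light chain kinase, which was dim, by -0.10 (SE 0.07). Rock1, a kinase that inhibits the phosphatase, differed by 0.28 (SE 0.20), and Dapk3, a kinase of the light chain, by 0.19 (SE 0.20).

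The list named SRF axis held 14 transcription factors of contractile genes, with TEAD and other factors beside Srf and its cofactors. Of these 14, 7 had lower means in Delta9, and the median over this mixed list was -0.018. In limma 0 of the 14 passed, where 0.0605% of all genes did. Of them 1, Nkx3-2, was lower at an unadjusted p under 0.05, where 6.06% of all genes were. Nkx3-2, a dim homeobox gene here, differed by -0.20 (SE 0.08), and Tead3, a TEAD factor, by -0.31 (SE 0.15). Mrtfb, an actin-regulated SRF cofactor, differed by 0.27 (SE 0.16), and Mef2c, a muscle and myeloid factor, by 0.61 (SE 0.68). Myocd was dim, at 2.71 to 2.83 in Delta9 and 2.65 to 2.88 in WT. Srf, its cofactor Mrtfa, and Klf4, a repressor of smooth muscle genes, are named after their values were seen. Srf measured 7.03, 6.97 and 5.99 in Delta9 replicates 1, 2 and 3, against 6.70, 6.64 and 6.82 in WT replicates 1, 2 and 3, and Delta9 replicate 3 was again the lowest. Klf4 measured 8.30, 7.83 and 9.79 in Delta9 replicates 1, 2 and 3, against 8.95, 8.14 and 8.66 in WT replicates 1, 2 and 3, with Delta9 replicate 3 the highest. Mrtfa and Mrtfb were also highest in that sample, at 8.06 and 8.02, against 7.42 to 7.83 and 7.45 to 7.74 in the others. Of the 14 factors, 5 were at their lowest there, where 25% of all genes were. Their median distance from the mean of the other samples was -0.029.

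Genes outside the set were ranked by how closely they followed the mean of the 10 over the 6 samples, as the root mean square difference of centred log2 values among 4276 genes with an SD of at least 0.3. The closest was Nexn, the actin-binding protein nexilin, at 0.10 log2. Tead1, a TEAD transcription factor, followed at 0.12, then Nox4, an oxidase that makes hydrogen peroxide, at 0.12, and Slit3, a secreted guidance protein, at 0.12. Myo1d, an unconventional myosin, Ccdc127, Nuak1, a kinase, and Synpo, the actin-associated protein synaptopodin, lay at 0.13 to 0.15. For Acta2 alone the closest were F2r, the thrombin receptor, at 0.08, and Tead1 at 0.08, then Unc5b, a netrin receptor, at 0.09, Nuak1 at 0.10 and Myo1d at 0.11. Tead1 itself measured 7.87, 8.02 and 6.51 in Delta9 replicates 1, 2 and 3, against 7.71, 8.05 and 8.21 in WT replicates 1, 2 and 3. Its difference was -0.52 (SE 0.39, adjusted p 0.676 in limma), so it shared the low value of Delta9 replicate 3 without separating the groups.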

How the data were processed

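The members and lists were chosen with earlier results of these data known. Per the labels, total RNA was extracted with Trizol and labelled with biotin by the Affymetrix 1-cycle kit. The authors deposited log2 values for 45101 probe sets. The log2 base was inferred from their range, and how they were summarised, background-corrected and normalized is not given in the sources used here. Deposited values carry no detection calls.

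Of the probe sets, 64 controls were left out of the tests. The platform annotation gave 1 symbol to 34945 probe sets, several to 932 and none to 9160, and Entrez identifiers matched 34741 of them to the RefSeq gene table (GRCm38.p6). Each gene took its brightest probe set. All 18193 genes were fitted with limma 3.58.1 in R 4.3.3 (lmFit, eBayes with trend), 3 Delta9 against 3 WT, with Benjamini-Hochberg adjustment and a threshold of 0.05. The values were used as deposited, with no pseudocount or filter, and the model was tested on simulated data. With 3 arrays in each group, precision is limited by their number.

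All 10 members and Lmna were named. Of each pathway list, genes past the threshold were named, or else the 2 of lowest p in each direction; other list genes named were chosen after their values were seen. Promoters came from RefSeq. A few listed genes are not reported here. The alternatives were quantile normalization, a filter on dim genes, other choices of probe set, other variance models, the replicate number as a block, array weights, the spike-in split, a macrophage covariate, an adjusted p of 0.10, and each sample left out. Figures were drawn with matplotlib 3.10.9.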

Additional observations from a re-analysis of the deposited data

How the results depend on the processing

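The count of contractile genes past the threshold was 0 under all 18 alternatives. Their median difference stayed negative under the 17 alternatives that give one, from -0.87 without Delta9 replicate 1 to -0.0074 without Delta9 replicate 3, and was -0.17 with array weights. Without Delta9 replicate 3 the sign turned for 5 genes, and with single samples left out these ran from -0.70 to 0.061 for Acta2, -0.94 to 0.021 for Actg2, -1.06 to 0.080 for Tagln, -1.23 to 0.20 for Cnn1 and -0.74 to 0.14 for Tpm1. It also turned for Cnn1 on the 4 arrays with more spike-in signal (0.019) and with the macrophage covariate (0.10), for Tpm1 with that covariate (0.22) and on probe set 1456623_at (0.20), and for Myh11 on probe set 1418122_at (0.015). Mylk stayed negative under all 17, from -1.02 to -0.48, with adjusted p from 0.111 to 0.665, and its interval included 0 with the macrophage covariate, without WT replicate 2 and without WT replicate 3. The genes without overlap, all below WT, numbered 1 after quantile normalization (10.1% of all genes were below), 4 within the 4 arrays (26.1%) and from 2 to 4 with single samples left out (13.5% to 17.9%; 4 without WT replicate 1). The number of all genes past the threshold, 11, was 139 with array weights, 149 with the spike-in block, 61 within the 4 arrays, 3 with the macrophage covariate, 48 at a threshold of 0.10, and from 1 without WT replicate 2 to 81 without Delta9 replicate 3. With the spike-in block 1 gene of the pathway lists passed. Lmna passed with the mean of its probe sets (-1.55), array weights (-1.90), the spike-in block (-1.96) and within the 4 arrays (-1.83), and ran from -2.14 to -1.66 with single samples left out, passing without Delta9 replicate 3. With the replicate number as a block the median difference of the contractile genes was -0.59 and 0 of all genes passed. Deviations from the group means, over all genes, had correlations of -0.40, 0.17 and -0.43 between same-numbered samples. With 3 samples in each group, 1 array can set these values, so they cannot tell whether same-numbered samples were paired. The causes of these changes were not tested. The 2 Myh11 probe sets averaged 4.16 and 2.54 log2 over the 6 samples, against array medians of 3.35 to 3.43. Such low levels limit what can be read from the differences of Myh11.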
